A study of Mus musculus with 2 samples.

Results

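The Siglec family comprises cell-surface lectins of the immunoglobulin superfamily that bind sialic acid, the sugar that caps many glycans on mammalian cells. The members described here are the 7 rows of the deposited count table whose Ensembl identifiers map to Siglec1, Siglece, Siglecf, Siglecg, Siglech, Cd33 and Cd22, out of 22060 genes in the table. All 7 were present. A summed count of at least 20 over both libraries, the minimum for calling a gene measured, was reached by 4 of them (Siglec1, Siglece, Cd33 and Cd22), against 11199 measured genes in the whole table.

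The series holds RNA-seq of cultured macrophages from the bone marrow of C57BL/6 mice aged 8 weeks, grown for 7 days in M-CSF, a cytokine that turns marrow progenitors into macrophages, and left untreated (0 h). One library came from cells labelled STAT2 T403A, in the usual notation a threonine-to-alanine substitution at position 403 of a subunit of the interferon-activated transcription factor complex, and 1 library came from wild-type (WT) cells. Nothing in the labels says how the substitution was introduced, how many animals were pooled or of which sex they were. Since each genotype is a single library, there is no replicate error and no test, and what follows describes a pair of libraries rather than genotypes.

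Siglecs differ in how they signal. Most Cd33-related members carry inhibitory cytoplasmic tyrosine motifs (ITIMs) that recruit the phosphatases SHP-1 and SHP-2, others pair with the activating adaptor DAP12, and Siglec1 has a long extracellular stalk and no ITIM, acting mainly in adhesion and in capture of sialylated particles. In macrophages the family is known for restraining Toll-like receptor responses and, through Siglec1, for marking resident cells of spleen, lymph node and marrow. Siglec1 is a known target of type I interferon.

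The table totals were 18658381 counts for T403A and 16033032 for WT. Levels are given as CPM or, for comparison between genes, as RPKM, which divides by the deposited gene length. Both were computed here after TMM scaling. The ratio of T403A to WT carries an exact 95% interval that covers counting error only. Stat2 itself was at 84.4 CPM in T403A and 376 CPM in WT, 4.46-fold lower (4.22 to 4.71), and since a substitution need not change a gene's count this does not check the labels. Of 10 macrophage marker genes all were measured in both libraries, so the labelled cell type had its defining transcripts. Among them Csf1r, the M-CSF receptor, was at 5503 CPM in T403A and 7146 CPM in WT, and the lysozyme gene Lyz2 at 29804 CPM in T403A and 36620 CPM in WT.

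The 4 Cd33-related members Siglecf, Siglecg, Cd33 and Siglece lie within 308.8 kb of chromosome 7 (GRCm38, GENCODE M21), and the promoter windows of 2 of them are shown because these neighbours differed in opposite directions. The sequences are RefSeq's (GRCm38.p6), 250 bases before to 50 bases after an annotated start, each 5′ to 3′ on the gene's own strand: chr7:43660112-43660411, minus strand, for Siglece and chr7:43533122-43533421, minus strand, for Cd33. Capitals mark GAGGAA, the core of the site bound by the myeloid factor PU.1, or its reverse complement.
Siglece: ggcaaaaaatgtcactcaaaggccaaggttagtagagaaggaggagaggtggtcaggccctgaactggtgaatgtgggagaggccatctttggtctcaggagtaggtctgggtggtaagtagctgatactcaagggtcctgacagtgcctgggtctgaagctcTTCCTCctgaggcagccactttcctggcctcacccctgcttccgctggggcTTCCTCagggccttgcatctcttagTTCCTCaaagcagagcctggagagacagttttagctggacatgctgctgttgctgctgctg
Cd33: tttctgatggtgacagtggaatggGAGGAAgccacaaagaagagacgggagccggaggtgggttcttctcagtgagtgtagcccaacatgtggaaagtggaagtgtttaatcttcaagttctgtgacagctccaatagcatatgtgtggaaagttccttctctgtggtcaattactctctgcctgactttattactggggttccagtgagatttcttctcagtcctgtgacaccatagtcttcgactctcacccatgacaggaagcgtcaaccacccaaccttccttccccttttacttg
The Siglece window held 3 such cores, beginning 87, 36 and 11 bases before the start on the reverse strand, and the Cd33 window held 1, beginning 226 bases before the start on the forward strand. Of all 32851 RefSeq promoter windows 28.3% held at least 1. The core of the interferon-stimulated response element, searched on both strands as GAAA, any 2 bases, GAAA, was in none of the windows of the 6 members with an entry and in 3.44% of all windows. The interferon-gamma activated site core, TTC, any 3 bases, GAA, was in the Siglech window only, among those 6, and in 8.30% of all windows. The Cd33 window belongs to a RefSeq start inside the longer GENCODE gene, and counts per gene do not show which start was used. Siglec1 has no entry.

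Among the 6 promoters with an entry, the windows of Cd33 and Siglecf had the highest local alignment score, 43 (a match counting 1, a mismatch -1, opening a gap -3 and extending it -1), where the other 14 pairs scored 9 to 12. Of 84 aligned columns 65 were identical, with 1 gap. The aligned stretches are shown with identical bases in capitals, from chr7:43533252-43533336 on the minus strand and chr7:43351306-43351389 on the plus strand.
Cd33: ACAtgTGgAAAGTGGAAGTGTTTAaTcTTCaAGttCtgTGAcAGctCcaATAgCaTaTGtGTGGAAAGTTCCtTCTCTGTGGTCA
Siglecf: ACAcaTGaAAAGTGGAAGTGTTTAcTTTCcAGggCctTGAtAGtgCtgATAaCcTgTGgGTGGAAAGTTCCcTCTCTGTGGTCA
The stretch lay 165 to 81 bases before the Cd33 start and ran from 35 bases before to 49 bases after the Siglecf start. The levels of these genes were far apart in both libraries, with Cd33 at 2645 reads in T403A and 692 reads in WT and Siglecf at 5 reads in each.

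Siglec1 and Siglece were lower and Cd33 was higher in the T403A library. A gene was called when it differed by 1.5-fold or more, with 1 outside its interval. Of the 4 measured members 2 were called lower, where 10.8% of all measured genes were lower, and 1 was called higher, where 13.5% of all measured genes were higher. Cd22 met neither condition, and the 3 members below the count minimum cannot be read at this depth. Over all measured genes 1515 were called higher and 1214 lower, 55.5% higher, which became 72.0% higher (2290 higher, 890 lower) with total library size in place of TMM. The calls of the 4 Siglec genes were the same under both scalings.

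**Figure D1:**
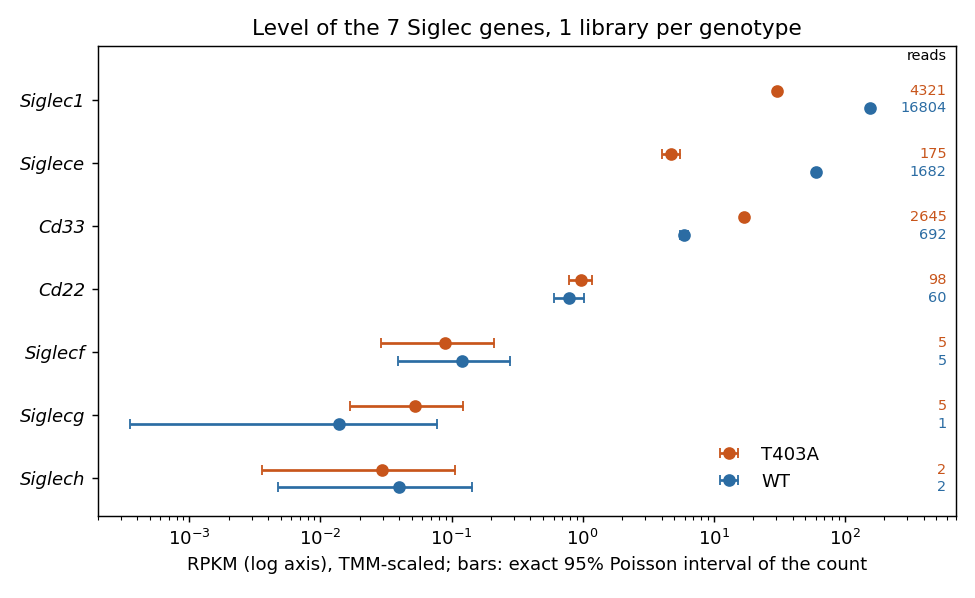
RPKM on a log axis for the 7 Siglec genes in the T403A and WT libraries, with exact 95% Poisson intervals of the count and the read counts at the right. Siglec1 and Siglece sat further right in WT, Cd33 further right in T403A, and the intervals of Cd22, Siglecf, Siglecg and Siglech overlapped between the libraries.

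Siglec1 encodes sialoadhesin (CD169), the largest Siglec, which binds sialylated cells, vesicles and viruses. The gene (ENSMUSG00000027322, protein-coding, chromosome 2, 131069220 to 131086765, minus strand) had 4321 reads in T403A and 16804 reads in WT, which is 217 CPM in T403A and 1120 CPM in WT. It was 5.17-fold lower in T403A (log2 ratio -2.37, interval -2.42 to -2.32). Per length it was at 30.3 RPKM in T403A, above 88.1% of measured genes, and at 157 RPKM in WT, above 97.7% of measured genes. It was the most abundant of the 7 genes per deposited length in both libraries. Only 1.88% of measured genes had a lower T403A to WT ratio. In bulk RNA, fewer cells with the transcript and less transcript per cell cannot be told apart.

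The interferon-induced genes listed beside Siglec1 were lower in all 16 of 16 measured cases, with a median log2 ratio of -3.78, where the median of all measured genes was 0.01. The factor gene Irf7 was at 18.4 CPM in T403A and 581 CPM in WT, and Ifit2, which inhibits translation of viral RNA, at 53.9 CPM in T403A and 710 CPM in WT. The log2 ratio of Siglec1, -2.37, was nearer to 0 than those of Irf7 (-4.98), Oasl2 (-4.43), Zbp1 (-4.51) and Ifit2 (-3.72). Macrophage markers were lower as well, by less. Where 10.8% of all measured genes were lower and 13.5% higher, 5 of 10 markers were lower and none was higher. Their median log2 ratio was -0.71, with a summed level of 39558 CPM in T403A and 51391 CPM in WT. Within that list Fcgr1, the high-affinity IgG receptor gene, was 8.76-fold lower and Cd14, the lipopolysaccharide co-receptor gene, 3.21-fold lower. The part of these genes in the Siglec1 difference was not tested.

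Most of the measured genes listed for resident macrophages, a group that includes the CD169-bearing cells, were lower. Of 9 measured genes among 10 listed, 6 were lower and 1 was higher, with a median log2 ratio of -1.01. Over all measured genes 10.8% were lower and 13.5% higher. The scavenger receptor gene Marco, of splenic marginal zone and other macrophages, was at 45.2 CPM in T403A and 523 CPM in WT, 11.6-fold lower (10.8 to 12.4). Vcam1, an adhesion molecule, had 19 reads in T403A and 55 in WT. Hmox1, the haem-degrading enzyme gene, and C1qb, of complement, were 2.02-fold and 2.03-fold lower. The 1 higher gene was the iron exporter gene Slc40a1, at 262 CPM in T403A and 116 CPM in WT. Timd4, a receptor for apoptotic cells, had 0 reads in T403A and 9 in WT and was below the minimum.

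Siglece encodes an ITIM-bearing receptor of neutrophils, monocytes and macrophages that restrains inflammatory signalling. The gene (ENSMUSG00000030474, protein-coding, chromosome 7, 43651070 to 43660161, minus strand) had 175 reads in T403A and 1682 reads in WT. Its level was 8.78 CPM in T403A and 112 CPM in WT, 12.8-fold lower in T403A (10.9 to 15.0), the largest difference among the 4 measured members. Only 0.804% of measured genes had a lower ratio. Per length it stood at 4.75 RPKM in T403A, above 42.0% of measured genes, and at 60.6 RPKM in WT, above 93.3%. The gap was larger than that of Siglec1: the RPKM of Siglec1 was 6.39 times that of Siglece in T403A (5.49 to 7.48) and 2.59 times in WT (2.46 to 2.72), a comparison within each library that no scaling affects.

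Neutrophils also carry Siglece and Cd33, and their markers other than Csf3r were low in both libraries. Of 11 listed genes 6 were measured, and Ly6g and Elane had 0 reads in both libraries, which allows up to 0.150 CPM in T403A and 0.200 CPM in WT at 3 counts. S100a9, an abundant neutrophil cytosolic protein, had 77 reads in T403A and 28 in WT, and Camp, a granule peptide gene, had 10 reads in T403A and 22 in WT. Csf3r, the G-CSF receptor gene, which monocytes and macrophages also express, was at 165 CPM in T403A and 280 CPM in WT. In total 2 of the 6 were higher and 2 lower, where 13.5% of all measured genes were higher and 10.8% lower. With total library size 3 of the 6 were higher and 1 lower. Their median log2 ratio of -0.06 was 0.14 with total library size. The summed level was 176 CPM in T403A and 289 CPM in WT, most of it Csf3r.

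**Figure D2:**
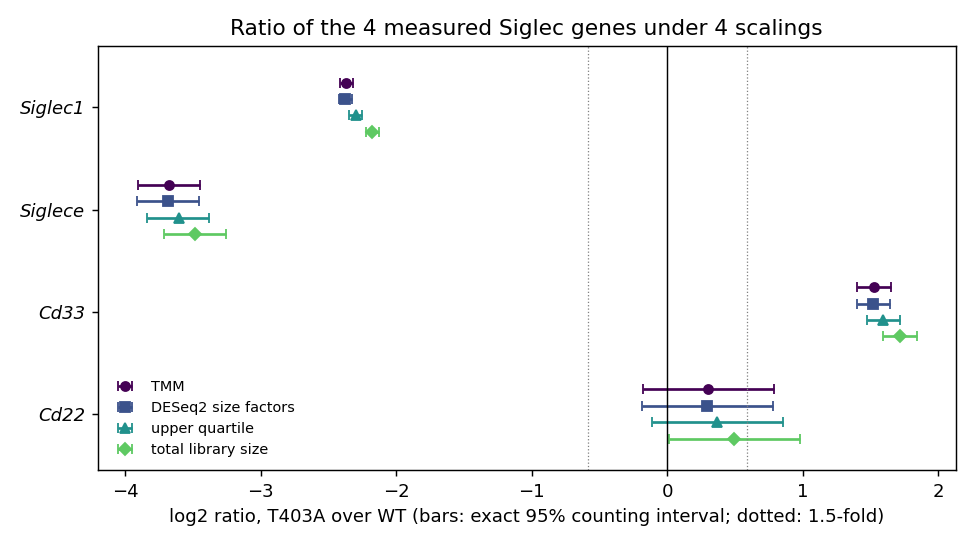
Log2 ratio of T403A over WT for the 4 measured Siglec genes under 4 scalings, with exact 95% counting intervals and dotted lines at 1.5-fold. Siglec1 and Siglece stay left of the lower line and Cd33 right of the upper line under all 4 scalings, while Cd22 lies between the lines.

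Cd33 was higher in the T403A library. Human CD33 is a myeloid inhibitory receptor with ITIMs, and the cytoplasmic tail of the mouse protein differs from the human one. The gene (ENSMUSG00000004609, protein-coding, chromosome 7, 43524216 to 43544428, minus strand) had 2645 reads in T403A and 692 reads in WT. Its level was 133 CPM in T403A and 46.1 CPM in WT, 2.88-fold higher in T403A (2.64 to 3.13). Only 3.62% of measured genes had a higher ratio. Per length it was at 17.1 RPKM in T403A, above 77.3% of measured genes, and at 5.94 RPKM in WT, above 48.1%. The RPKM depends on a length of 7771 bases, the union of all annotated exons.

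Cd33 and Siglece stood in opposite orders in the libraries. The RPKM of Cd33 was 3.60 times that of Siglece in T403A (3.09 to 4.22) and 0.0979 times that of Siglece in WT (0.0895 to 0.107). Against Siglec1, the RPKM of Cd33 was 0.563 times in T403A (0.536 to 0.591) and 0.0379 times in WT (0.0350 to 0.0408). In T403A the order per deposited length was therefore Siglec1, Cd33, Siglece and Cd22, and in WT it was Siglec1, Siglece, Cd33 and Cd22, with no overlap of counting intervals between neighbours. The place of Cd33 rests on its exon union of 7771 bases, and a shorter transcript would raise its RPKM. The counting intervals do not cover that. The 3 weakest members followed in both libraries with intervals that overlapped one another.

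The family as a whole summed to 53.3 RPKM in T403A and 224 RPKM in WT, 4.21-fold lower in T403A. Siglec1 made up 56.9% of the summed RPKM in T403A and 69.9% in WT. The share of Cd33 was 32.0% in T403A and 2.65% in WT, and that of Siglece 8.91% in T403A and 27.0% in WT. Cd22 and the 3 weakest members together stayed a small remainder, Cd22 being 1.83% in T403A and 0.354% in WT. These sums and shares use the deposited lengths, which for Cd33 is an exon union of 7771 bases.

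**Figure D3:**
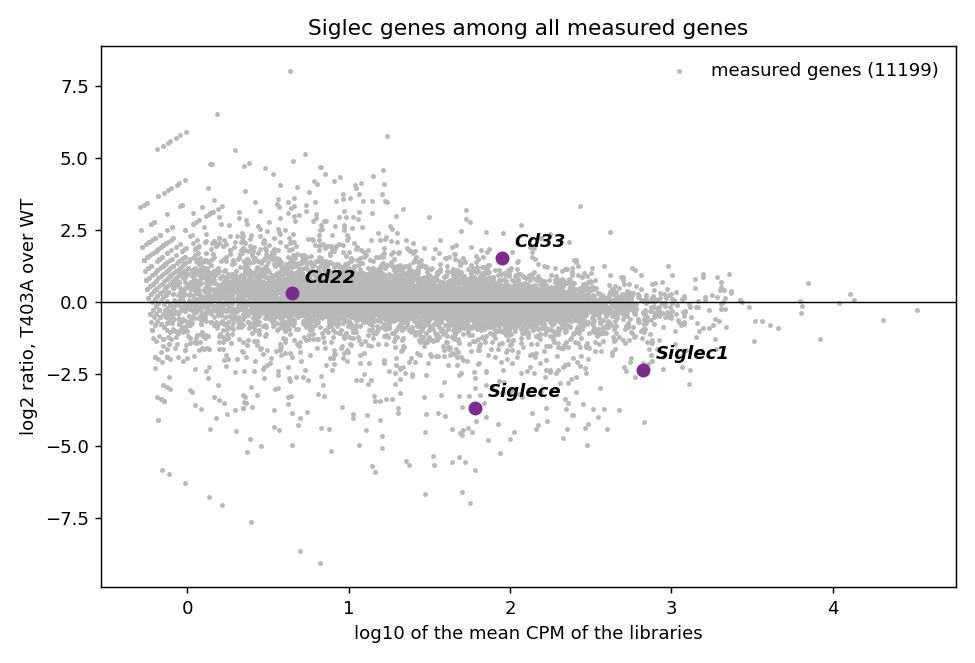
Log2 ratio of T403A over WT against the log10 mean CPM of the libraries for the 11199 measured genes (grey), with the 4 measured Siglec genes in purple. Siglec1 (-2.37) and Siglece (-3.67) lie below the bulk of genes of like level, Cd33 (1.52) above it and Cd22 (0.29) inside it.

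The genes between and around Cd33 and Siglece did not share one direction. The 5′ ends of the GENCODE genes Cd33 and Siglece are 115.7 kb apart. The Cd33 promoter window shown above belongs to a RefSeq start inside that gene, nearer to its 3′ end. Of 20 genes in the cluster span and 100 kb on each side 7 were measured, 2 higher and 3 lower, Cd33 and Siglece included. Over all measured genes 13.5% were higher and 10.8% lower. Vsig10l, an immunoglobulin-domain gene, had 126 reads in T403A and 56 in WT, 1.69-fold higher (1.23 to 2.36). The zinc finger gene Zfp719, between Cd33 and Siglece, had 144 reads in T403A and 204 reads in WT, 1.88-fold lower, and Ctu1, a tRNA thiolation gene beyond Siglece, had 233 reads in T403A and 328 reads in WT, 1.87-fold lower. The zinc finger genes Zfp658 (log2 ratio 0.31) and Zfp715 (0.54) were not called. Of the 7, Cd33 and Siglece differed most.

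**Figure D4:**
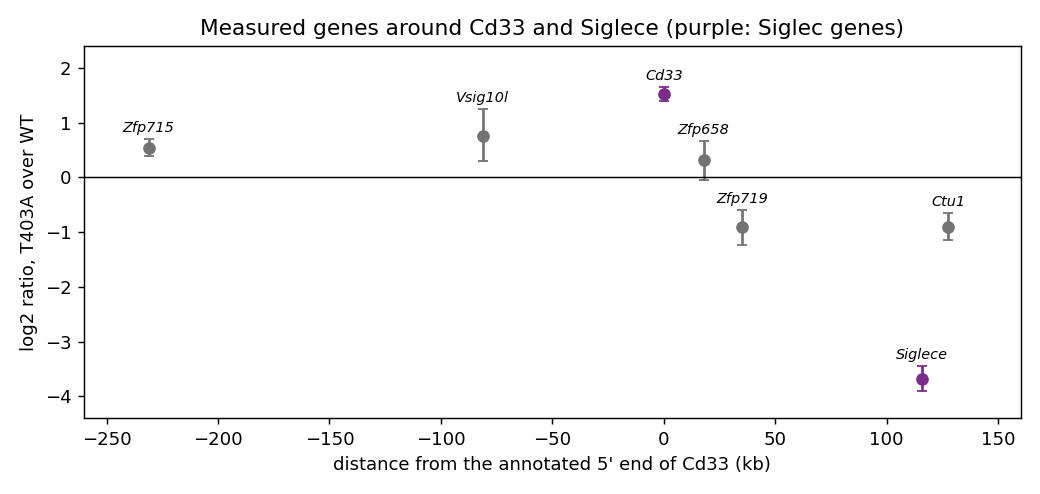
Log2 ratio of T403A over WT with exact 95% counting intervals for the 7 measured genes of the chromosome 7 cluster span and 100 kb on each side, against distance in kb from the GENCODE 5′ end of Cd33. Cd33 (1.52) is the highest and Siglece (-3.67) the lowest of the 7.

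Cd22 encodes the inhibitory co-receptor of the B cell antigen receptor, which prefers sialic acid in alpha-2,6 linkage. The gene (ENSMUSG00000030577, protein-coding, chromosome 7, 30865402 to 30880342, minus strand) had 98 reads in T403A and 60 reads in WT. Its level was 0.975 RPKM in T403A and 0.793 RPKM in WT, a ratio of 1.23 with an interval of 0.882 to 1.72 that included 1. A difference was not detectable at this depth. Exons of an antisense gene model overlap 479 bases of Cd22 exons on the opposite strand, and with the strand setting unknown their reads cannot be separated. B cell markers were at or near 0: of 11 listed genes 7 had 0 reads in T403A and 6 in WT, with Pax5 and Ebf1 at 0 in both. The 2 measured B cell genes were Cd79b (20 reads in T403A and 8 reads in WT) and the adaptor gene Blnk (1147 reads in T403A and 929 reads in WT), which myeloid cells also express, and neither was called. They made up most of the summed level of the list, 59.1 CPM in T403A and 62.8 CPM in WT. Their median log2 ratio was 0.38.

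Siglecg, which restrains B-1 cells and binds CD24, had 5 reads in T403A and 1 in WT, a ratio of 3.76 with an interval of 0.421 to 178. The gene (ENSMUSG00000030468) lies on chromosome 7, 43408204 to 43418358, plus strand. Siglecf, the receptor that marks eosinophils and alveolar macrophages, had 5 reads in each library, a ratio of 0.752 (0.173 to 3.27). It (ENSMUSG00000039013) lies on chromosome 7, 43351341 to 43359531, plus strand. Siglech, a DAP12-paired receptor of plasmacytoid dendritic cells and microglia, had 2 reads in each library, at or under the limit that a count of 0 allows. It (ENSMUSG00000051504) lies on chromosome 7, 55768178 to 55778925, plus strand. Per length, Siglecf was at 0.0899 RPKM in T403A and 0.119 RPKM in WT, Siglecg at 0.0522 RPKM in T403A and 0.0139 RPKM in WT, and Siglech at 0.0296 RPKM in T403A and 0.0394 RPKM in WT.

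Listed markers of the cells that usually carry these weak members were in part at 0 and in part measured. Of the microglial genes 8 of 9 were measured. Of 8 eosinophil genes Epx, Prg3, Ear6 and Il5ra had 0 reads in both libraries, and the 1 measured gene, the chemokine receptor gene Ccr3, had 16 reads in T403A and 119 in WT (log2 ratio -3.27), so that the list summed to 1.35 CPM in T403A and 8.13 CPM in WT. Of 9 alveolar macrophage genes 4 had 0 reads in each library and 4 were measured. Among these Atp6v0d2 was higher (26.4 CPM in T403A and 12.7 CPM in WT) and Fabp4 was not called at 28.1 CPM in T403A and 22.7 CPM in WT, with a list median of 0.27 and sums of 75.7 CPM in T403A and 53.6 CPM in WT. Of 10 plasmacytoid dendritic cell genes 2 had 0 reads in T403A and 2 in WT, Ly6d in both. The 4 measured ones, Tcf4, Runx2, Lair1 and Ccr9, had a median log2 ratio of 0.04, with Runx2 higher (10.6 CPM in T403A and 5.67 CPM in WT) and Lair1 lower (165 CPM in T403A and 262 CPM in WT). With total library size Lair1 was not called, and macrophages also express Tcf4 and Lair1. The list summed to 291 CPM in T403A and 362 CPM in WT. Of 9 microglial genes Sall1 had 0 reads in both, and P2ry12 had 152 reads in T403A and 59 in WT. Of the 8 measured 2 were higher and 3 lower, with a median of -0.34, where 13.5% of all measured genes were higher and 10.8% lower. Among the 8 were Olfml3 on 26 reads in T403A and 252 reads in WT and Gpr34 on 21 reads in T403A and 5 reads in WT. Their sum was 280 CPM in T403A and 502 CPM in WT.

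Mouse has other sialic acid-binding lectin genes outside the 7. Mag, the myelin-associated glycoprotein gene, had 64 reads in T403A and 62 in WT and met neither condition (log2 ratio -0.37). Siglec15, a DAP12-paired lectin gene of osteoclasts, had 4 reads in T403A and 0 in WT.

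The signalling partners of the ITIM-bearing members were present in both libraries. All 12 listed kinases, phosphatases and adaptors were measured. Where 10.8% of all measured genes were lower and 13.5% higher, 5 of the 12 were called lower, 7 were not called and none was higher. Their median log2 ratio was -0.33. With total library size 1 was higher (Fyn). Ptpn6, which encodes SHP-1, was at 360 CPM in T403A and 449 CPM in WT, and the ubiquitin ligase gene Cbl at 410 CPM in T403A and 517 CPM in WT. Among the lower genes were the Src-family kinase genes Fgr (2.64-fold), Src (2.49-fold) and Lyn (1.76-fold), and the cytokine signalling inhibitor gene Socs3 (2.30-fold). Src-family kinases phosphorylate ITIMs and ITAMs. Among 10 genes of the DAP12 and DAP10 pathway, all measured, 1 was lower and none was higher, against the same shares of all measured genes. The median of the 10 was -0.37. The DAP12 gene Tyrobp was at 483 CPM in T403A and 559 CPM in WT, the kinase gene Syk at 755 CPM in T403A and 958 CPM in WT, the DAP10 gene Hcst at 3.41 CPM in T403A and 4.67 CPM in WT, and the 1 lower gene was the adaptor gene Sh2b2 (1.73-fold).

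Among genes that modify, cleave or attach sialic acid, some were called higher in T403A, and the sialyltransferase gene St3gal5 was called lower. The synthesis genes Gne, Nans, Nanp and Cmas were not called. Of 9 measured genes of sialic acid synthesis and transport 2 were higher and none was lower. Over all measured genes 13.5% were higher and 10.8% lower. The median log2 ratio of the 9 was 0.34. With upper quartile or total library size scaling 4 of the 9 were higher. The genes called higher among all 11199 measured also rose, from 1515 with TMM to 1748 with upper quartile and 2290 with total library size. Cmah, which hydroxylates the acetyl form of sialic acid to the glycolyl form that mouse Cd22 prefers and Siglec1 binds poorly, had 147 reads in T403A and 26 in WT, 4.25-fold higher (2.79 to 6.73). Npl, which cleaves free sialic acid, had 109 reads in T403A and 46 reads in WT, 1.78-fold higher. Renbp, an epimerase of the precursor sugar, was at 123 CPM in T403A and 85.6 CPM in WT, and the lysosomal sialic acid exporter gene Slc17a5 at 91.8 CPM in T403A and 63.7 CPM in WT. With TMM neither Renbp nor Slc17a5 was called.

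Of 20 sialyltransferase genes 11 were measured, 4 higher and 1 lower, where 13.5% of all measured genes were higher and 10.8% lower. The median log2 ratio of the 11 was -0.09, and 0.10 with total library size. The lower gene was St3gal5, whose enzyme makes the ganglioside GM3, at 104 CPM in T403A and 319 CPM in WT, 3.05-fold lower (2.90 to 3.22). St3gal1, which sialylates O-glycans, was not called at 266 CPM in T403A and 315 CPM in WT. St6gal1, which makes the alpha-2,6 linkage bound by Cd22, was at 129 CPM in T403A and 69.1 CPM in WT, 1.87-fold higher. St8sia4, a polysialyltransferase gene, was 2.22-fold higher (2.11 to 2.33), St8sia6 3.89-fold higher on 62 reads in T403A and 12 reads in WT, and St6galnac6 1.53-fold higher.

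Of 7 genes listed for sialidase activity and O-acetylation of sialic acid 5 were measured, and none was called. Their median log2 ratio was 0.14. The lysosomal sialidase gene Neu1 was at 157 CPM in T403A and 140 CPM in WT, and its protective partner gene Ctsa at 1244 CPM in T403A and 1136 CPM in WT. Casd1, which adds O-acetyl groups to sialic acid, was at 48.9 CPM in T403A and 59.2 CPM in WT, and Siae, which removes them, at 54.9 CPM in T403A and 44.0 CPM in WT. Among 8 surface proteins that carry sialylated glycans 7 were measured, 1 higher and 2 lower, where 13.5% of all measured genes were higher and 10.8% lower. With upper quartile or total library size scaling 2 of the 7 were higher. The median of the 7 was -0.11, and 0.08 with total library size. Spn (CD43), a counter-receptor of Siglec1, was 1.73-fold higher. Cd52, a small sialylated surface glycoprotein, was at 123 CPM in T403A and 265 CPM in WT, and the hyaluronan receptor gene Cd44 at 211 CPM in T403A and 479 CPM in WT. The leukocyte phosphatase gene Ptprc (CD45), whose product is a ligand of Cd22, was at 1042 CPM in T403A and 1122 CPM in WT.

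**Figure D5:**
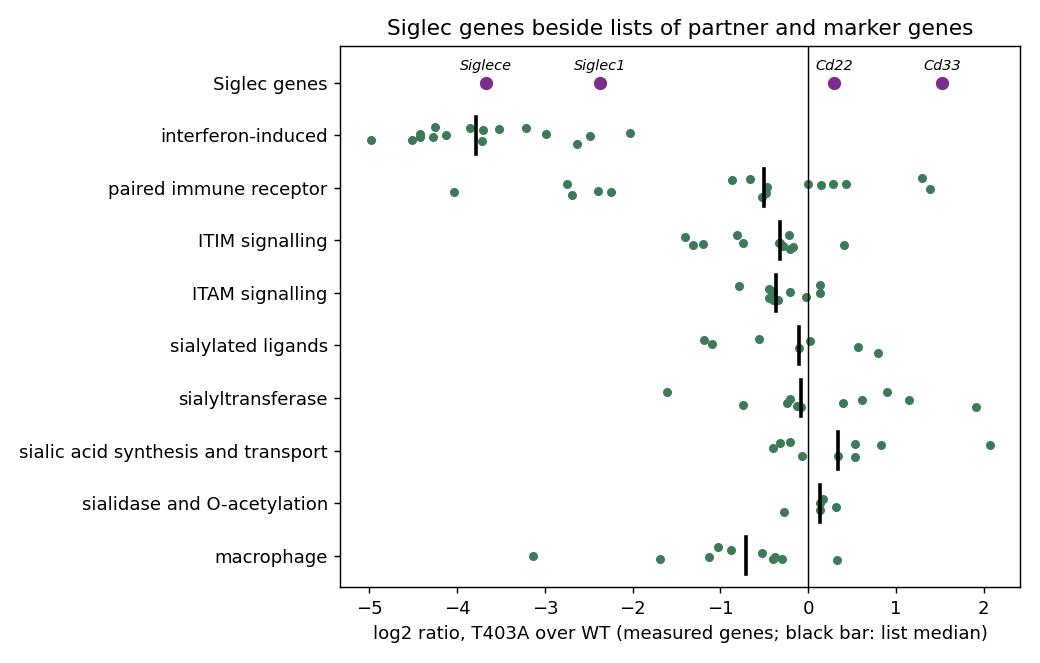
Log2 ratio of T403A over WT for the measured genes of 9 lists, with the list median as a black bar, below the 4 measured Siglec genes (purple). The interferon-induced genes lie left of 0 without exception (median -3.78), and Siglec1 and Siglece lie within their range, while Cd33 lies to the right of every gene of that list.

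Likeness in level was measured as the Euclidean distance in log2 RPKM over the 2 libraries, among 10877 named protein-coding genes. Nearest to Siglec1 were Sdc3 (distance 0.16), Znfx1 (0.23) and Itgal (0.25). Nearest to Siglece were Oas2 (0.27), Helz2 (0.32) and Mmp14 (0.33). Nearest to Cd33 were Cdc42ep3 (0.07), Mettl7a1 (0.10) and Tcp11l2 (0.12), and nearest to Cd22 were Aste1 (0.01), Iqcb1 (0.02) and Trib3 (0.03). With 2 libraries such neighbours share a pair of levels and no more.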

How the data were processed

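The deposited table holds raw read counts per Ensembl gene and a gene length, per the file headers. Tools listed, with no role, in the submitters' processing notes are HTSeq 0.9.1, HISAT2, DESeq 1.30.0 and cutadapt 1.15, with the build GRCm38. Annotation release, strand setting and RNA selection are not given in the sources used. Columns were matched to samples by title, and 21969 identifiers received a symbol.

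Counts were scaled by TMM (edgeR 4.0.16, R 4.3.3). CPM, RPKM and log2 ratios (prior count 0.5) were computed from the deposited counts. Ratios carry Clopper-Pearson 95% intervals (scipy 1.17.1), and the Poisson and Clopper-Pearson intervals and the 3-count limit cover counting error only. Alternatives were DESeq2 1.42.0 size factors, upper quartile and total scaling, a 2-fold call, other count minimums and a prior of 2. The interval and call were tested on simulated counts.

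The deposited lengths of the 7 members equalled the GENCODE M21 exon unions. Of the 50-base words of their transcripts, 0% (Siglece) to 7.84% (Cd22, with its antisense model) occur in another gene's transcripts.

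Members and lists were chosen with earlier results of these data known. The text names the members, up to 4 genes per list (the 2 with most reads, the 2 with the largest ratio) and the 3 nearest in level. Others were named after their values were seen. Some lists share genes. Some genes counted in the lists are not reported here by name.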

Additional observations from a re-analysis of the deposited data

How the results depend on the processing

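The count of Siglec genes called higher (1) and lower (2) was the same under all 6 alternatives: DESeq2 size factors, upper quartile and total library size scaling, a 2-fold call, no count filter and a summed count of at least 100. The ratio of Siglec1 was 0.203 with upper quartile and 0.221 with total library size, against 0.193 with TMM, and that of Cd33 was 3.28 with total library size, against 2.88. These shifts follow from the scaling itself, under which the median log2 ratio of all measured genes was 0.20 with total library size and 0.01 with TMM. The 65 listed genes called in either direction became 50 to 69. Of 204 list counts under the alternatives 20 moved by over 1.5 times or to or from 0, some of them by 1 gene. Of 102 list medians 27 moved by over 0.1. Of the 102 medians 10, in 7 lists, changed sign: without a count filter eosinophil (0.71, against -3.27), other lectins (1.20, against -0.37), plasmacytoid dendritic cell (-0.20, against 0.04) and neutrophil genes (0.44, against -0.06), at a summed count of 100 B cell (-0.11, against 0.38) and neutrophil genes (0.13), with total library size neutrophil (0.14), sialylated ligand (0.08, against -0.11) and sialyltransferase genes (0.10, against -0.09), and with upper quartile neutrophil genes (0.01). No called ratio of a Siglec gene changed sign under another scaling. Depth limits Siglecf, Siglecg and Siglech, with 10 summed reads at most, and Cd22. No paired analysis was possible because each genotype has 1 library.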

Other observations

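Other paired immune receptors of myeloid cells also differed in both directions. Of 16 measured genes 7 were lower and 2 higher in T403A, with a median log2 ratio of -0.50. Over all measured genes 10.8% were lower and 13.5% higher. Trem1, a DAP12-paired amplifier of inflammation, had 11 reads in T403A and 141 in WT, 17.0-fold lower (9.24 to 34.9). Pilra, an ITIM-bearing receptor of sialylated O-glycoproteins, was at 22.0 CPM in T403A and 149 CPM in WT, 6.75-fold lower (6.09 to 7.49). The 2 higher genes were Cd200r1, the inhibitory receptor for CD200, at 161 CPM in T403A and 61.3 CPM in WT, and Lilra6, at 22.6 CPM in T403A and 9.20 CPM in WT, whose reads can be shared with near-identical relatives such as Pirb. Sirpa, the receptor for CD47, was not called at 2722 CPM in T403A and 2735 CPM in WT, nor was Pirb at 795 CPM in T403A and 1146 CPM in WT.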
